A study of Mus musculus with 14 samples.

Results

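Fatty acid oxidation and the tricarboxylic acid (TCA) cycle were followed through 40 genes of a given list of symbols, out of 20660 mouse genes that had a named probe on the arrays. All 40 had at least 1 probe, found through the RefSeq accession of the probe, and all 40 were well above background on all 14 arrays. Of them, 24 act in fatty acid activation, the carnitine shuttle and beta-oxidation, and 16 act in the TCA cycle or directly beside it. The cells were peritoneal cells of C57BL/6 mice sorted for the surface proteins CD11b and F4/80, which mark macrophages, and each sample was hybridised to 1 one-colour Agilent array. There were 4 arrays from mice given thioglycollate together with IL-4 complex (Thio+IL-4c), 3 from mice given thioglycollate alone (Thio), 4 from mice given IL-4 complex alone (IL-4c) and 3 from mice given the PBS vehicle (PBS). IL-4 complex is the cytokine IL-4 (5 µg) bound to the antibody 11B11 (25 µg), which prolongs its activity in the animal. Thioglycollate, given as 2 ml of a 4% broth, is an irritant that draws blood monocytes into the peritoneal cavity, and everything was injected there. Cells from mice without thioglycollate are called resident below and cells from mice with it elicited, although the sort itself does not separate cells by origin. The age of the mice and the time between injection and harvest are not given in the sources used here. The study set macrophages of tissue origin against macrophages of monocyte origin, and the question for these genes is how each kind changes its oxidative metabolism under IL-4.

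In fatty acid oxidation, acyl-CoA synthetases activate a fatty acid, the carnitine shuttle carries long chains across the inner mitochondrial membrane, and repeated rounds of dehydrogenation, hydration, oxidation and thiolysis cut them to acetyl-CoA. The TCA cycle oxidises that acetyl-CoA to carbon dioxide and yields NADH and reduced flavin for the respiratory chain. Macrophages activated by IL-4 are known for oxidative metabolism, and fatty acid oxidation is widely used as a mark of that state.

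Levels are log2 signals relative to the 75th percentile of the same array, so that 0 is that percentile, and a log2 difference of 1 stands for 2 times the signal. A gene counts as called where limma gave it a Benjamini-Hochberg adjusted p under 0.05 over all 20347 genes tested. Whether the samples of a group came from different mice is not stated in the labels, and p-values cover only the spread between samples. The 75th percentile of the signal was 2044 to 2549 on the Thio+IL-4c arrays, 2294 to 3578 on Thio, 3059 to 3883 on IL-4c and 1275 to 1819 on PBS, so brightness moved with IL-4c in resident cells. Slide 2 held Thio 2, Thio 3 and all Thio+IL-4c arrays, and slide 1 held all others. Thio 1 stood apart from its group, with correlations across genes of 0.848 and 0.865 with Thio 2 and Thio 3, against 0.984 between those, and of 0.917 to 0.931 with the PBS arrays of its slide. Results that include Thio arrays are therefore also given without it where that matters. Itgam, which encodes CD11b, and Adgre1, which encodes F4/80, were well above background on every array, but their levels differed. Adgre1 averaged 3.53 in Thio+IL-4c, 4.73 in Thio, 6.27 in IL-4c and 6.54 in PBS. Itgam averaged 4.23 in Thio+IL-4c, 4.14 in Thio, 5.79 in IL-4c and 5.95 in PBS. The log2 of the summed signal of the 6 macrophage markers measured, of 7 listed, a value set mostly by the brightest of them, was 7.01 to 7.17 in Thio+IL-4c, 7.75 to 8.21 in Thio, 7.87 to 7.92 in IL-4c and 9.42 to 9.64 in PBS, and 4 of the 6 fell with IL-4c in each kind of cell. Of these, the lysozyme gene Lyz2 averaged 4.64 in Thio+IL-4c, 6.69 in Thio, 1.19 in IL-4c and 8.47 in PBS. Markers of other cells also moved. On the same scale, the sum over 9 of 10 B cell markers was 1.58 to 1.73 in Thio+IL-4c, 1.72 to 2.03 in Thio, 1.69 to 1.88 in IL-4c and 3.36 to 4.17 in PBS. That over 8 eosinophil markers was 2.47 to 2.95 in Thio+IL-4c, 0.99 to 1.54 in Thio, 5.77 to 6.05 in IL-4c and 7.08 to 7.27 in PBS, a sum carried in resident cells by Alox15 (5.87 in IL-4c and 7.18 in PBS on average), which resident peritoneal macrophages also express. Siglecf of the same list averaged -1.35 in Thio+IL-4c, -0.82 in Thio, -3.68 in IL-4c and -4.45 in PBS. The granule gene Epx reached the well above background threshold on 4 of 4 Thio+IL-4c, 3 of 3 Thio, 2 of 4 IL-4c and 0 of 3 PBS arrays. Most of that list went the other way. Of its 8 markers, 2 were called higher in Thio than in PBS and 5 lower, against 20.2% and 24.2% of all genes. Among the lower ones, Prg2 averaged -2.91 in Thio and -1.01 in PBS. Over 9 of 10 neutrophil markers the sum was 3.80 to 4.40 in Thio+IL-4c, 3.11 to 4.10 in Thio, 1.70 to 2.72 in IL-4c and 1.93 to 2.23 in PBS. The sum over 8 adipocyte markers was 2.71 to 2.80 in Thio+IL-4c, 1.07 to 1.99 in Thio, 2.12 to 2.67 in IL-4c and 1.40 to 1.68 in PBS. Thio 1, on slide 1, stood apart in both of these sums. The neutrophil sum was 3.11 on Thio 1 and 4.07 and 4.10 on Thio 2 and Thio 3. The adipocyte sum was 1.07 on Thio 1, below every PBS array, and 1.94 and 1.99 on Thio 2 and Thio 3. Adipoq reached the well above background threshold on 4 of 4 Thio+IL-4c, 3 of 3 Thio, 3 of 4 IL-4c and 0 of 3 PBS arrays. Plin1 of that list averaged -4.59 in Thio+IL-4c, -4.08 in Thio, 0.92 in IL-4c and -2.65 in PBS. With IL-4c in resident cells 4 of the 8 adipocyte markers differed upward and 4 downward. Over all 14 arrays the sums ran from 3.23 to 4.49 for T and NK cell markers, 0.60 to 2.96 for mast cell and basophil markers, 5.74 to 6.86 for dendritic cell markers, mostly Siglech, and 1.10 to 2.50 for mesothelial and stromal markers. The part of these cells in the results was not tested. In sorted bulk RNA, fewer cells of a type and less RNA per cell cannot be told apart.

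In resident cells, IL-4c went with higher RNA of nearly the whole set. Of the 40 genes 33 rose and 2 fell in IL-4c against PBS, with a median log2 difference of 0.88, while 32.2% of all genes tested were called (16.9% higher and 15.3% lower) with a median of -0.01. All IL-4c arrays lay above all PBS arrays for 35 genes and below them for 1, together 36, against 53.3% of all genes (26.4% above and 26.9% below). All 16 TCA cycle genes rose, with a median of 1.16 (by limma, 0 fell, also at an unadjusted p under 0.05). Of the 24 fatty acid oxidation genes 17 rose, with a median of 0.54, and the 2 falls were both in this group. The other 5 genes did not pass the test, namely Cpt1a, Acsl5, Acadm, Acaa1a and Ehhadh, of which the last 2 are the peroxisomal members. The colour map of all 14 arrays shows the 4 IL-4c arrays as one block of higher levels.

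**Figure D1:**
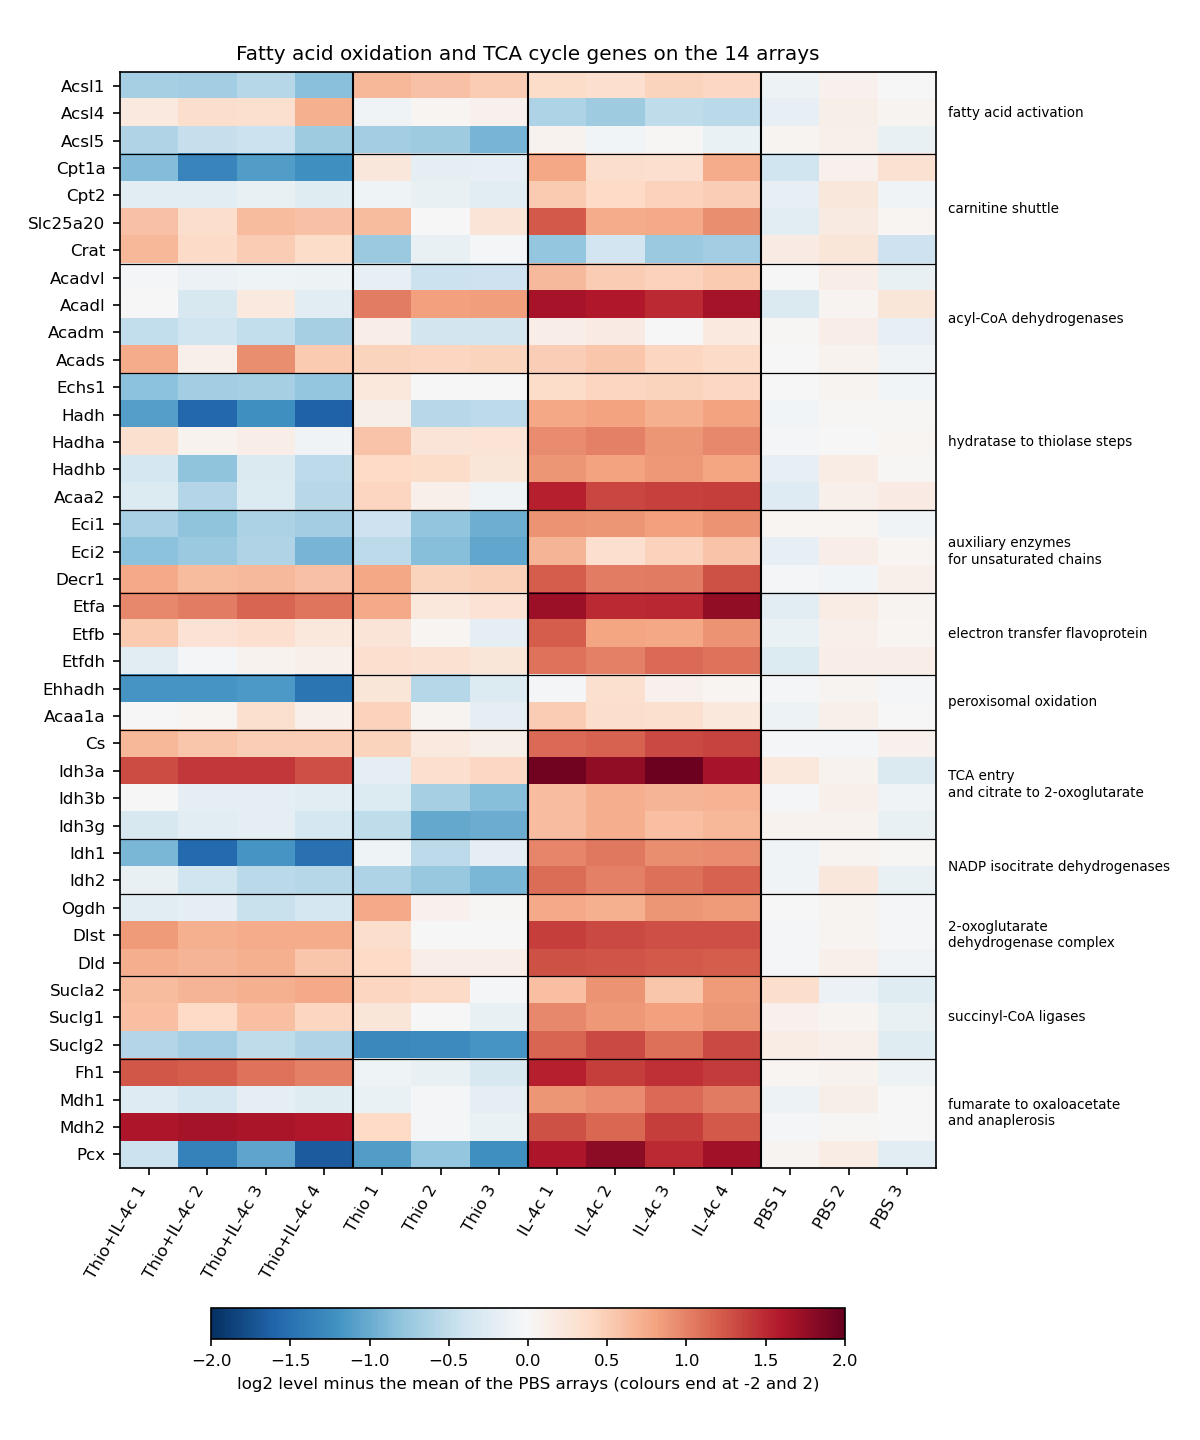
Each row is 1 of the 40 genes, grouped by role, and each column 1 array, in the order Thio+IL-4c, Thio, IL-4c and PBS; colour gives the log2 level minus the mean of the PBS arrays, from -2 (dark blue) to 2 (dark red). The mean of the IL-4c arrays is above that of PBS for 37 of 40 genes, while the Thio+IL-4c arrays are blue for Hadh, Idh1, Cpt1a and Ehhadh and red for Mdh2, Idh3a and Fh1.

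Among the TCA cycle genes, Idh3a, Pcx and Fh1 rose most, and Idh3b and Idh3g least. Idh3a encodes the catalytic subunit of the NAD-dependent isocitrate dehydrogenase. Its level was 3.26, 3.11, 3.29 and 2.98 in IL-4c, against 1.55, 1.40 and 1.04 in PBS, so the groups did not overlap, and it rose by 1.83 (SE 0.16, adjusted p = 4.52e-06). The regulatory subunit gene Idh3g stood at 4.75, 4.87, 4.74 and 4.81 in IL-4c and at 4.21, 4.21 and 4.00 in PBS, a difference of 0.65 (SE 0.13, adjusted p = 0.00165), and Idh3b differed by 0.68 (SE 0.13, adjusted p = 0.0012). Citrate synthase, encoded by Cs, joins acetyl-CoA to oxaloacetate at the entry of the cycle. Its level was 4.99, 5.04, 5.18 and 5.21 in IL-4c and 3.81, 3.82 and 3.93 in PBS. The rise was 1.25 (SE 0.10, adjusted p = 2.83e-06), that is 2.38-fold. The fumarase gene Fh1 had 4.00, 3.83, 3.90 and 3.84 in IL-4c, against 2.48, 2.52 and 2.34 in PBS, and rose by 1.45 (SE 0.10, adjusted p = 5.75e-07). Mdh2, the mitochondrial malate dehydrogenase that makes oxaloacetate, had 6.23, 6.10, 6.34 and 6.18 in IL-4c, against 4.93, 4.98 and 4.96 in PBS, and rose by 1.26 (SE 0.12, adjusted p = 7.9e-06). All IL-4c arrays lay above all PBS arrays for each of these genes.

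The NADP-dependent isocitrate dehydrogenases, Idh1 of the cytosol and peroxisome and Idh2 of the mitochondrion, supply NADPH. Idh1 stood at 2.64, 2.71, 2.59 and 2.61 in IL-4c, against 1.59, 1.71 and 1.69 in PBS (0.97, SE 0.16, adjusted p = 0.000416). Idh2 stood at 5.26, 5.15, 5.25 and 5.32 in IL-4c, against 4.07, 4.36 and 4.00 in PBS (1.10, SE 0.13, adjusted p = 4.26e-05). Both were higher on every IL-4c array than on any PBS array. Pcx encodes pyruvate carboxylase, which refills the cycle with oxaloacetate from pyruvate. It showed -0.38, -0.20, -0.50 and -0.31 in IL-4c and -1.93, -1.84 and -2.20 in PBS, a 3.13-fold rise that was the second largest of the set on the log2 scale (1.64, SE 0.24, adjusted p = 0.000221). Of the 2-oxoglutarate dehydrogenase complex, Dlst rose by 1.32, Dld by 1.24 and Ogdh by 0.80. Ogdh had 3 probes, of which 1 dimmer probe went the other way in a fit over all kept probes (-0.77, adjusted p = 0.0089), while the third rose by 1.27. The succinyl-CoA ligase genes rose by 1.23 (Suclg2, the GDP-forming subunit), 0.88 (Suclg1) and 0.73 (Sucla2). Suclg2 had 1.11, 1.26, 1.05 and 1.26 in IL-4c, against 0.09, 0.05 and -0.31 in PBS, with no overlap.

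In fatty acid oxidation the largest rises were downstream of the carnitine shuttle. Etfa encodes a subunit of the flavoprotein that takes electrons from the acyl-CoA dehydrogenases. Its level was 4.11, 3.89, 3.91 and 4.18 in IL-4c and 2.19, 2.55 and 2.46 in PBS, a rise of 1.62 (SE 0.15, adjusted p = 4.86e-06), and its second probe rose by 1.58. Its partner gene Etfb rose by 0.92 and Etfdh, which passes the electrons on to ubiquinone, by 1.08. Acadl, the long-chain acyl-CoA dehydrogenase gene, stood at 2.52, 2.47, 2.36 and 2.54 in IL-4c, against 0.58, 0.93 and 1.12 in PBS, and rose 3.02-fold (1.60, SE 0.15, adjusted p = 6.69e-06). By comparison Acadvl rose by 0.54 and Acads by 0.47, and Acadm differed by 0.12 (SE 0.14, adjusted p = 0.612). The call of Acads was lost without any one of 10 arrays, at adjusted p of 0.0526 to 0.126. All 5 genes of the hydratase to thiolase steps rose, led by the thiolase gene Acaa2, which had 5.34, 5.12, 5.16 and 5.17 in IL-4c and 3.53, 3.88 and 3.94 in PBS (1.41, SE 0.15, adjusted p = 1.58e-05). Hadh, the short-chain hydroxyacyl-CoA dehydrogenase gene, had 2.23, 2.26, 2.17 and 2.27 in IL-4c and 1.41, 1.49 and 1.49 in PBS (0.77, SE 0.17, adjusted p = 0.00393). Hadha and Hadhb, which encode the 2 kinds of subunit of the trifunctional protein, rose by 0.95 and 0.84, and Echs1 by 0.41. The auxiliary enzymes for unsaturated chains rose as well, by 0.88 for Eci1, 0.51 for Eci2 (0.42 and not called without PBS 1) and 1.14 for Decr1. Decr1 had 3.22, 3.03, 3.05 and 3.29 in IL-4c and 1.96, 1.95 and 2.12 in PBS on its brighter probe, while its dimmer probe differed by -0.43 (adjusted p = 0.15), and the mean of both differed by 0.35 and was not called.

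The entry steps were mixed. Cpt1a, the carnitine palmitoyltransferase that controls the entry of long chains into mitochondria, stood at 3.70, 3.27, 3.25 and 3.67 in IL-4c and at 2.52, 3.02 and 3.23 in PBS. All IL-4c arrays lay above all PBS arrays, but the difference of 0.55 (SE 0.20, adjusted p = 0.0524) did not pass the test, and a second, dimmer probe differed by 0.00. Cpt2, the inner membrane transferase gene, rose by 0.47 and the carnitine-acylcarnitine carrier gene Slc25a20 by 0.91. Averaging the probes of Cpt2, of which the other differed by -0.03, gave 0.22 and no call. Acsl1, a long-chain acyl-CoA synthetase gene, had 1.80, 1.76, 1.88 and 1.84 in IL-4c and 1.33, 1.52 and 1.45 in PBS, a rise of 0.39 (SE 0.09, adjusted p = 0.00593), which was not called on the mean of its probes (0.26). Acsl4, whose enzyme prefers arachidonate, went the other way, with 1.84, 1.75, 1.96 and 1.93 in IL-4c below the 2.30, 2.57 and 2.52 in PBS (-0.59, SE 0.13, adjusted p = 0.00349). Crat, the short-chain carnitine acetyltransferase gene, had -2.47, -2.07, -2.43 and -2.38 in IL-4c and -1.52, -1.44 and -2.10 in PBS, groups that overlapped by 1 array, and fell (-0.65, SE 0.20, adjusted p = 0.0264). Leaving out any one of 5 arrays ended the call of Crat, at adjusted p of 0.0577 to 0.119, and in the authors' deposited table the differences of Acsl4 (-0.28) and Crat (-0.42) were not called.

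In elicited cells the IL-4c response split between the TCA cycle genes and part of the fatty acid oxidation genes. Of the 40 genes 14 rose and 10 fell in Thio+IL-4c against Thio, with a median log2 difference of 0.11, while 39.4% of all genes were called (16.2% higher and 23.1% lower) with a median of 0.03. All Thio+IL-4c arrays lay above all Thio arrays for 16 genes and below them for 13, together 29, against 44.6% of all genes (21.9% above and 22.7% below). Of the 16 TCA cycle genes 11 rose and 2 fell (81.2% called), with a median of 0.45. Of the 24 fatty acid oxidation genes 3 rose and 8 fell (45.8% called), with a median of -0.03. Called or not, 12 of these 24 differed upward and 12 downward, so the falls were not a trait of the whole group. The split depended on the scaling. With array medians in place of the 75th percentile 5 TCA genes rose and 2 fell, and in the authors' deposited table the rises were 6 and the falls 2, while the fatty acid oxidation genes held 1 rise and 8 falls under the medians and 2 rises and 11 falls in that table. On slide 2 alone, which leaves out Thio 1, the counts were 11 and 1 for the TCA cycle and 4 and 7 for fatty acid oxidation, against 21.2% and 20.1% of all genes.

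**Figure D2:**
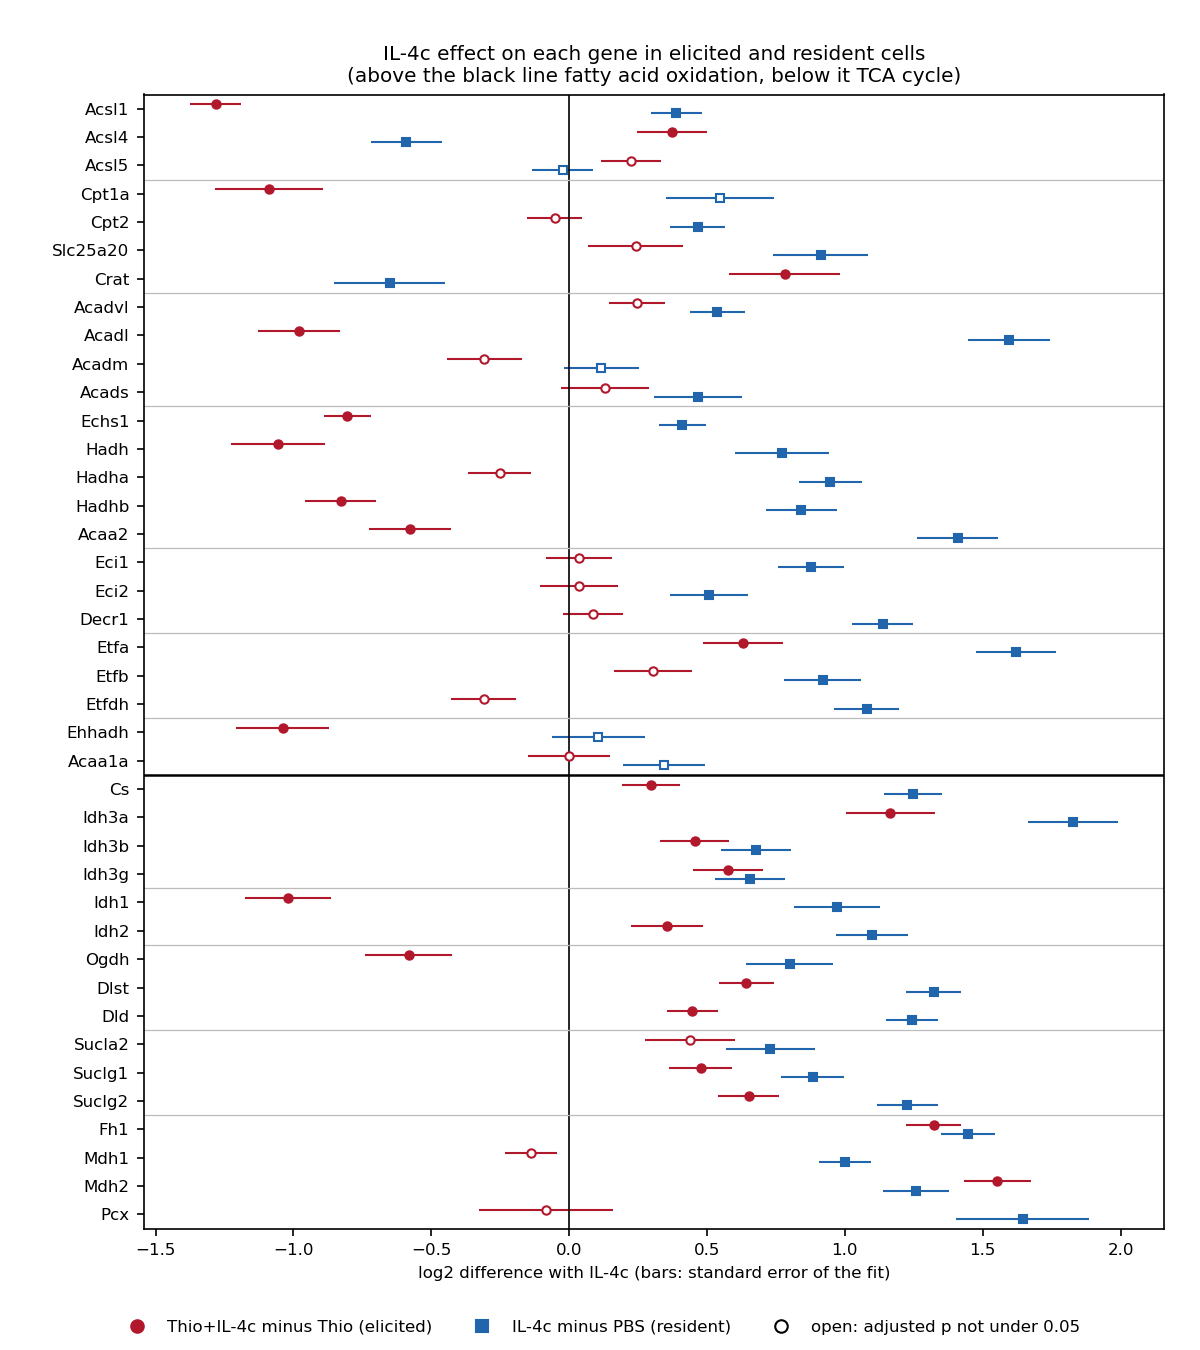
Each row is 1 gene; red circles give the log2 difference Thio+IL-4c minus Thio and blue squares IL-4c minus PBS, with the standard error of the fit as bars, and open symbols did not pass an adjusted p of 0.05. The blue squares lie to the right of 0 for 37 of 40 genes. The red circles lie left of 0 for all 5 hydratase to thiolase genes and right of 0 for 12 of 16 TCA cycle genes.

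The rises in elicited cells were led by 3 genes that had also risen in resident cells. Mdh2 stood at 6.58, 6.61, 6.59 and 6.56 in Thio+IL-4c, against 5.35, 4.91 and 4.83 in Thio, and rose 2.94-fold (1.55, SE 0.12, adjusted p = 1.22e-06). Fh1 stood at 3.69, 3.66, 3.54 and 3.45 in Thio+IL-4c, against 2.37, 2.30 and 2.13 in Thio (1.32, SE 0.10, adjusted p = 9.05e-07). Idh3a had 2.64, 2.75, 2.75 and 2.62 in Thio+IL-4c and 1.15, 1.67 and 1.75 in Thio (1.17, SE 0.16, adjusted p = 0.000123). None of the 3 had overlapping groups, and Thio 1 was the highest Thio array for Mdh2 and Fh1 and the lowest for Idh3a. The other subunits of isocitrate dehydrogenase rose by 0.58 (Idh3g) and 0.45 (Idh3b), the second at 0.33 and not called without Thio 3. Idh3g had 3.83, 3.92, 3.97 and 3.79 in Thio+IL-4c and 3.63, 3.12 and 3.14 in Thio, with no overlap. Suclg2 rose to -0.64, -0.73, -0.56 and -0.67 in Thio+IL-4c, against -1.34, -1.32 and -1.24 in Thio, a difference of 0.65 (SE 0.11, adjusted p = 0.000541). Dlst rose by 0.64, Suclg1 by 0.48 and Dld by 0.45, and the second Dld probe rose by 0.75.

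Citrate synthase and Idh2 were at the edge of the test. Cs had 4.52, 4.40, 4.35 and 4.35 in Thio+IL-4c and 4.31, 4.05 and 3.97 in Thio, a rise of 0.30 (SE 0.10, adjusted p = 0.0407). Idh2 had 4.00, 3.74, 3.61 and 3.58 in Thio+IL-4c and 3.52, 3.38 and 3.23 in Thio, a rise of 0.35 (SE 0.13, adjusted p = 0.0497). The groups did not overlap for either gene. Leaving out any one of 12 arrays ended the call of Cs (adjusted p 0.0501 to 0.127), and any one of 11 arrays that of Idh2 (0.0527 to 0.141). Sucla2, which encodes the ADP-forming subunit, differed by 0.44 (SE 0.16, adjusted p = 0.0508) and Mdh1, the cytosolic malate dehydrogenase gene, by -0.14 (SE 0.10, adjusted p = 0.26). Pcx stood at -2.42, -3.35, -3.04 and -3.65 in Thio+IL-4c and -3.11, -2.76 and -3.22 in Thio, overlapping groups with a difference of -0.08 (SE 0.24, adjusted p = 0.789). The 2 falls were those of Ogdh (-0.58, SE 0.16, adjusted p = 0.0116) and Idh1. The other Ogdh probes fell too, at -0.66 and -1.30. Without Thio 1 the fall of Ogdh was -0.35, and on slide 2 alone it was not called. Idh1 fell to 0.75, 0.12, 0.49 and 0.17 in Thio+IL-4c, against 1.59, 1.14 and 1.48 in Thio (-1.02, SE 0.16, adjusted p = 0.000248).

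In fatty acid oxidation 8 of 24 genes fell, against 23.1% of all genes, and 13 did not pass the test. Acsl1 had 0.77, 0.74, 0.86 and 0.59 in Thio+IL-4c and 2.10, 2.02 and 1.94 in Thio, a 2.43-fold lower level and the largest fall of the 40 (-1.28, SE 0.09, adjusted p = 6.8e-07). Cpt1a had 2.06, 1.61, 1.80 and 1.69 in Thio+IL-4c and 3.14, 2.73 and 2.76 in Thio (-1.09, SE 0.20, adjusted p = 0.000857). Its second probe differed by 0.20 (adjusted p = 0.47), and the mean of both was -0.45 and not called. Hadh stood at 0.36, -0.11, 0.24 and -0.15 in Thio+IL-4c, against 1.57, 0.91 and 0.94 in Thio (-1.06, SE 0.17, adjusted p = 0.000384). Acadl stood at 0.87, 0.56, 1.07 and 0.65 in Thio+IL-4c, against 1.89, 1.69 and 1.72 in Thio (-0.98, SE 0.15, adjusted p = 0.000245). For these 4 genes every Thio+IL-4c array lay below every Thio array, and Thio 1 was the highest Thio array. Of the other genes from hydratase to thiolase, Hadhb fell by 0.83 on the log2 scale, Echs1 by 0.80 and Acaa2 by 0.58, while Hadha differed by -0.25 (SE 0.11, adjusted p = 0.0985). Acaa2 had 3.51, 3.20, 3.52 and 3.24 in Thio+IL-4c and 4.21, 3.90 and 3.72 in Thio, with no overlap, but on slide 2 alone it differed by -0.44 and was not called. Ehhadh, the bifunctional enzyme gene of peroxisomal oxidation, fell by 1.04.

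The rises in fatty acid oxidation were those of Crat, Etfa and Acsl4. Crat reached -1.02, -1.30, -1.18 and -1.32 in Thio+IL-4c, against -2.42, -1.83 and -1.71 in Thio (0.78, SE 0.20, adjusted p = 0.0086). Etfa reached 3.36, 3.42, 3.57 and 3.47 in Thio+IL-4c, against 3.15, 2.61 and 2.69 in Thio (0.63, SE 0.15, adjusted p = 0.0044). Acsl4 had 2.65, 2.81, 2.78 and 3.18 in Thio+IL-4c and 2.40, 2.50 and 2.56 in Thio. These groups did not overlap, but the rise of Acsl4 (0.37, SE 0.13, adjusted p = 0.0373) was not called without any one of 8 arrays (adjusted p 0.0509 to 0.0836). The 3 genes for unsaturated chains, Eci1, Eci2 and Decr1, differed by 0.04 to 0.09 and did not pass the test, and Decr1 stood at 2.77, 2.65, 2.66 and 2.59 in Thio+IL-4c and 2.79, 2.46 and 2.49 in Thio.

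The difference between the IL-4c effect in elicited cells and that in resident cells was tested directly, as the first effect minus the second. It was below 0 for 25 of the 40 genes and above 0 for 2, with a median of -0.71, while 32.7% of all genes were called (12.7% above 0 and 19.9% below) with a median of -0.05. In 8 genes the effects were called in opposite directions, a rise with IL-4c in resident cells and a fall with it in elicited cells. They were Acsl1, Acadl, Hadhb, Hadh, Acaa2, Echs1, Ogdh and Idh1. On slide 2 alone the falls of Acaa2 and Ogdh were not called. The rise of Acsl1 in resident cells was not called on the mean of its probes, and a dimmer Ogdh probe fell in both kinds of cell. The share of all genes with such a pair of calls was not counted. Acadl differed most, by -2.58 (SE 0.21, adjusted p = 4.92e-06), and then Idh1 (-1.99, SE 0.22, adjusted p = 4.07e-05), Acaa2 (-1.99, SE 0.21, adjusted p = 2.8e-05) and Hadh (-1.83, SE 0.24, adjusted p = 0.000147). Pcx differed by -1.73, Acsl1 by -1.67, Hadhb by -1.67 and Cpt1a by -1.64, the last at -0.72 and not called on the mean of its probes, as was Cpt2 (-0.22). All 5 hydratase to thiolase genes and all 3 flavoprotein genes were among the 25, although Etfb (-0.62) lost its call without any one of 9 arrays (adjusted p 0.0508 to 0.0848).

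Of the 16 TCA cycle genes 10 had a difference below 0, among them Idh1 and Ogdh, whose effects had opposite signs. Rises in both kinds of cell were called for 12 genes of the whole set, Etfa and 11 of the TCA cycle. The share of all genes with rises called in both was not counted. For 7 of the 12 the rise in elicited cells was smaller by the test of the difference, as for Cs (-0.95, SE 0.15, adjusted p = 0.000452) and Idh2 (-0.75, SE 0.18, adjusted p = 0.00875). Idh3a was the nearest to the threshold (-0.66, SE 0.23, adjusted p = 0.0454) and was not called without any one of 11 arrays (adjusted p 0.0622 to 0.114). For the other 5 no difference was called. Fh1 differed by -0.12 (SE 0.14, adjusted p = 0.512), Idh3g by -0.08 (SE 0.18, adjusted p = 0.757), Idh3b by -0.22 (SE 0.18, adjusted p = 0.356), Suclg1 by -0.41 (SE 0.16, adjusted p = 0.0733) and Mdh2 by 0.30 (SE 0.17, adjusted p = 0.209), which does not show equal responses. Crat (1.43, SE 0.28, adjusted p = 0.00228) and Acsl4 (0.96, SE 0.18, adjusted p = 0.00162) were the 2 genes above 0: both fell in resident cells and rose in elicited cells. Without Thio 1, 27 genes were called, 3 above and 24 below 0, while 40.1% of all genes were called (18.9% above and 21.2% below). The plot of 8 genes by array shows these patterns.

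**Figure D3:**
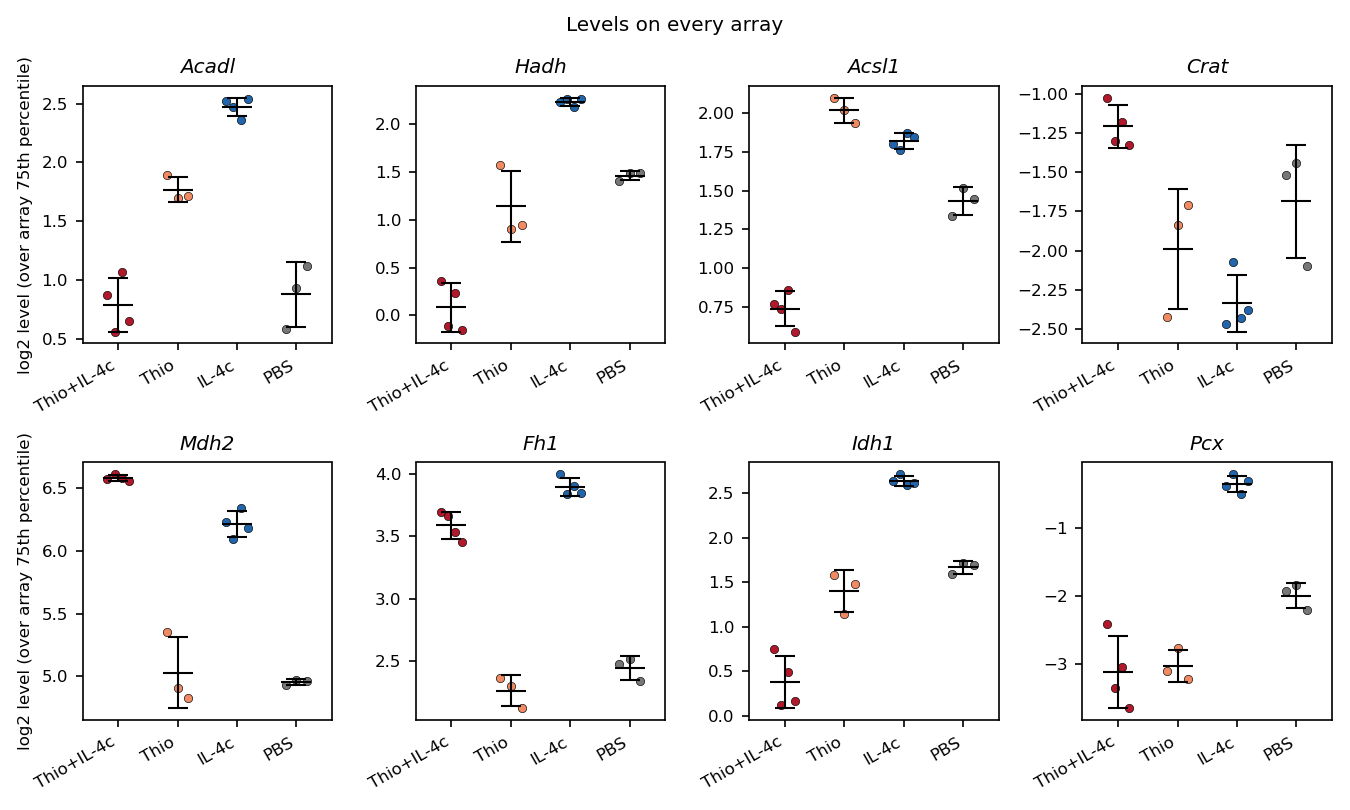
Each panel is 1 gene, with the log2 level over the array's 75th percentile on the y axis (scales differ) and 1 dot per array for Thio+IL-4c, Thio, IL-4c and PBS; the long bar is the mean and the whiskers 1 SD. Acadl, Hadh, Acsl1 and Idh1 are higher in IL-4c than in PBS and lower in Thio+IL-4c than in Thio, Mdh2 and Fh1 are higher with IL-4c in both kinds of cell, and Crat has the opposite order to Acadl.

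Thioglycollate alone gave no shared direction. Of the 40 genes 5 rose and 9 fell in Thio against PBS, with a median log2 difference of 0.03, and the 35.0% called compare with 44.5% of all genes (20.2% higher and 24.2% lower, median -0.09). All Thio arrays lay above all PBS arrays for 10 genes and below them for 10, together 20, against 42.6% of all genes (19.2% above and 23.4% below). By limma none of the 16 TCA cycle genes rose (2 at an unadjusted p under 0.05) and 5 fell, while in fatty acid oxidation 5 rose and 4 fell. The largest falls were those of Suclg2, with -1.34, -1.32 and -1.24 in Thio and 0.09, 0.05 and -0.31 in PBS (-1.24, SE 0.12, adjusted p = 6.65e-06), Pcx, with -3.11, -2.76 and -3.22 in Thio and -1.93, -1.84 and -2.20 in PBS (-1.04, SE 0.26, adjusted p = 0.00768), and Idh3g, with 3.63, 3.12 and 3.14 in Thio and 4.21, 4.21 and 4.00 in PBS (-0.84, SE 0.14, adjusted p = 0.000454). None of the 3 pairs of groups overlapped. Eci2 (-0.81), Acsl5 (-0.78), Idh2 (-0.77), Eci1 (-0.73), Idh3b (-0.60) and Acadvl (-0.33) fell too, Acadvl losing its call without any one of 4 arrays (adjusted p 0.0646 to 0.109). The rises were led by Acadl, with 1.89, 1.69 and 1.72 in Thio and 0.58, 0.93 and 1.12 in PBS (0.89, SE 0.16, adjusted p = 0.000948), and Acsl1, with 2.10, 2.02 and 1.94 in Thio and 1.33, 1.52 and 1.45 in PBS (0.59, SE 0.10, adjusted p = 0.000577). Decr1 had 2.79, 2.46 and 2.49 in Thio and 1.96, 1.95 and 2.12 in PBS (0.57, SE 0.12, adjusted p = 0.00247), but its other probe fell by 0.79 (adjusted p = 0.013) and the mean of both was at -0.11. The rise of Acsl1 was not called on the mean of its probes (0.31). Etfa (0.42, and 0.25 without Thio 1) and Hadha (0.37) lost their calls without any one of 13 arrays (adjusted p 0.0524 to 0.151) and of 4 arrays (0.0502 to 0.0741). The count of members was unsteady. After quantile normalization 11 rose and 9 fell, against 21.8% and 25.0% of all genes. Once slide was a block, the comparison rested on Thio 1 alone against PBS. Its median log2 difference over the 40 genes was 0.23, against 0.045 for all genes. Without Thio 1, 4 rose and 12 fell, against 30.1% and 38.1% of all genes. On slide 1, where Thio 1 is the only Thio array, the median log2 difference was 0.23, against 0.04 for all genes. For Thio arrays on slide 2, slide and thioglycollate cannot be told apart.

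With IL-4c in both, elicited cells had lower levels than resident cells across the set. Of the 40 genes 33 fell and 3 rose in Thio+IL-4c against IL-4c, with a median of -0.76, although 70.0% of all genes were called (27.9% higher and 42.2% lower, median -0.21). All Thio+IL-4c arrays lay above all IL-4c arrays for 3 genes and below them for 34, together 37, against 72.6% of all genes (29.9% above and 42.7% below). The share called is thus to be read against a high background, and all Thio+IL-4c arrays were on slide 2 and all IL-4c arrays on slide 1. Pcx was 6.81-fold lower (-2.77, SE 0.22, adjusted p = 1.19e-06), Idh1 4.78-fold lower (-2.26, SE 0.14, adjusted p = 1.91e-07) and Hadh 4.44-fold lower (-2.15, SE 0.16, adjusted p = 5.56e-07). Acaa2 (-1.83), Suclg2 (-1.82), Acadl (-1.68) and Cpt1a (-1.68) followed. The 3 rises were those of Crat (1.13, SE 0.19, adjusted p = 0.000264), Acsl4 (0.99, SE 0.12, adjusted p = 2.81e-05) and Mdh2 (0.37, SE 0.11, adjusted p = 0.0109), of which Mdh2 was at 0.03 and not called under array medians and in the authors' deposited table. With slide as a term of the fit, which rests on Thio 1 alone to separate slide from thioglycollate, 2 rose and 19 fell, and Crat differed by 0.48 and was not called. The bar plot sets the shares called in both groups of genes beside all genes.

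**Figure D4:**
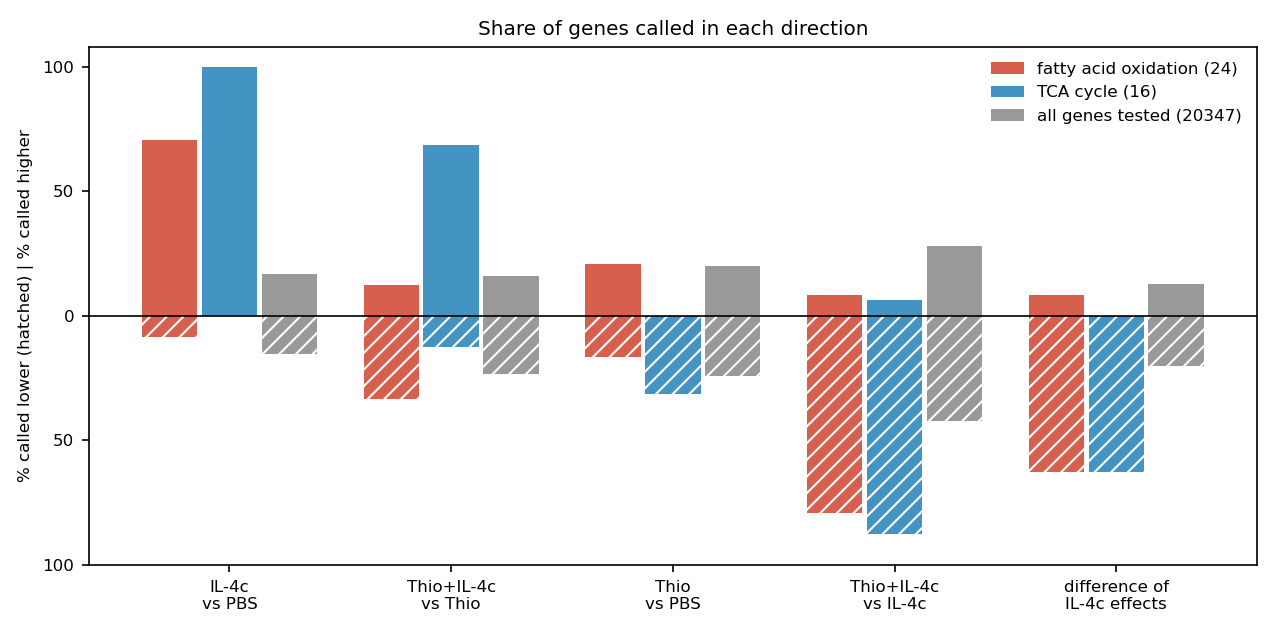
Bars show the percent of genes called higher (up) and lower (down, hatched) in each of 5 comparisons, for the 24 fatty acid oxidation genes (red), the 16 TCA cycle genes (blue) and all 20347 genes tested (grey). The TCA cycle bars point up with IL-4c in resident cells and mostly up in elicited cells. The fatty acid oxidation bars point mostly up in resident cells (17 of 24 higher). In elicited cells they point both ways (8 of 24 lower and 3 higher, against 23.1% and 16.2% of all genes).

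Promoter sequence was looked at for members that moved alike or apart. RefSeq (GRCm38.p6) gave a window from 250 bases before to 50 after the start for 36 of the 40 genes, and Acaa2, Crat, Decr1 and Idh3a were not matched. The 6 motifs searched, on both strands, were chosen with the results known. The element TNAAGGTCA of the estrogen-related receptors and the PPAR element (AGGTCA, any 1 base, AGGTCA) were in none of the 36, against 1.43% and 0.0481% of 27025 genes. The STAT6 element (TTC, any 4 bases, GAA) was in 2 (Fh1 and Idh3b) against 8.01% of genes, the cyclic AMP response element TGACGTCA in 2 (Mdh2 and Ogdh) against 2.03%, the NRF1 element (GCGC, any 1 base, TGCGC) in 4 (Dld, Etfb, Etfdh and Sucla2) against 5.19% and the CCAAT box (CCAAT) in 20 against 41.1%. A match is a string of letters, not a bound site, and a missing match says only that these letters are not in this window. Mdh2 and Ogdh are shown because both hold the same element in capitals, 127 and 51 bases before the start, while with IL-4c in elicited cells Mdh2 rose and Ogdh fell, and Fh1 because it rose in both kinds of cell and holds the STAT6 letters in capitals 142 bases before the start. The windows are chr5:135778399-135778698 on the plus strand for Mdh2, chr11:6291347-6291646 on the plus strand for Ogdh, in which RefSeq has several starts and the first is shown, and chr1:175625586-175625885 on the minus strand for Fh1, each read 5′ to 3′.
Mdh2: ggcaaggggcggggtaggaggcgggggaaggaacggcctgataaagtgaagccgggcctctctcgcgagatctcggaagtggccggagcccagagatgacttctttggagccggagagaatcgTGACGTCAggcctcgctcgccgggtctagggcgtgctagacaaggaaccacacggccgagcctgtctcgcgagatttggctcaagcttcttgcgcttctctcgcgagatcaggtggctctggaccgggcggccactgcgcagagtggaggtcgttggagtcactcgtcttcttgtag
Ogdh: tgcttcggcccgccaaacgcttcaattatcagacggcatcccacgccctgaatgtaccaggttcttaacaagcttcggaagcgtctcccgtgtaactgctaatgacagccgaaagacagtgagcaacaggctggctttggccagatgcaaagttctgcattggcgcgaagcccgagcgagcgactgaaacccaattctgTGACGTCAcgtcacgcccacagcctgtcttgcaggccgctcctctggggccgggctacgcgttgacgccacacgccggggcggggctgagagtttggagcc
Fh1: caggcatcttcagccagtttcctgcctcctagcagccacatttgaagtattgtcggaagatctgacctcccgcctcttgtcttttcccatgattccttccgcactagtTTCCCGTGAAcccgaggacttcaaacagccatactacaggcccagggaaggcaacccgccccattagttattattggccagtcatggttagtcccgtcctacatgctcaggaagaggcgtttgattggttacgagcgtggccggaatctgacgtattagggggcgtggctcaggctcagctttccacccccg

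Hadha and Hadhb, the genes of the trifunctional protein, start 272 bases apart on opposite strands of chromosome 5, so their windows share 228 bases. The window of Hadhb, chr5:30155003-30155302 on the plus strand, is shown 5′ to 3′ with the shared bases in capitals.
Hadhb: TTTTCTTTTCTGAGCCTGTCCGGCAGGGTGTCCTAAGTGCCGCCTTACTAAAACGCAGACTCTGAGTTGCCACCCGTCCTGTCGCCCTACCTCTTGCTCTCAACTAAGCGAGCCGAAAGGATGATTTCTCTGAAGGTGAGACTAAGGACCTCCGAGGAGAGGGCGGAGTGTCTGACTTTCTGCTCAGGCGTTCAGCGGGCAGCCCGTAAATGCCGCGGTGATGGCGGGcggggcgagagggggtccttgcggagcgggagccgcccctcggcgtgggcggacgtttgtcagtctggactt
Both genes rose in resident cells, by 0.95 for Hadha and 0.84 for Hadhb. In elicited cells Hadhb fell (-0.83, SE 0.13, adjusted p = 0.00028) and Hadha differed by -0.25 (SE 0.11, adjusted p = 0.0985). The difference between these 2 genes was not tested.

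Other genes of the pathway were counted in 7 lists, to be read against the 32.2% of all genes called with IL-4c in resident cells and the 39.4% called in elicited cells. In resident cells 5 of 7 further TCA cycle genes rose with IL-4c and 1 fell, and 2 rose and 1 fell in elicited cells, or 85.7% and 42.9% called. Of 13 genes of pyruvate dehydrogenase and the pyruvate carriers, 7 rose and 1 fell in resident cells, and 2 rose and 5 fell in elicited cells, or 61.5% and 53.8% called. Of 17 genes for exits from and side entries to the cycle, 8 rose and 1 fell in resident cells, led by the aspartate aminotransferase gene Got1 (1.98, SE 0.14, adjusted p = 6.63e-07), and 7 rose and 2 fell in elicited cells, or 52.9% called in each. The fall in resident cells was that of Acod1, whose enzyme draws cis-aconitate from the cycle to make itaconate (-1.98, SE 0.56, adjusted p = 0.0162). In elicited cells Acod1 rose (2.17, SE 0.56, adjusted p = 0.00868), and the difference of its effects was 4.15 (SE 0.79, adjusted p = 0.00173).

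Among 21 other enzymes of fatty acid oxidation, 4 rose and 2 fell in resident cells (28.6%, against 32.2% of all genes), and 2 rose and 9 fell in elicited cells (52.4%, against 39.4%). Acat1, the mitochondrial acetoacetyl-CoA thiolase gene, rose most in both, by 1.46 (SE 0.10, adjusted p = 8.02e-07) and 1.30 (SE 0.10, adjusted p = 1.61e-06), and Acad12 fell most in elicited cells (-2.25, SE 0.16, adjusted p = 5.53e-07). Of 20 regulators, 3 rose and 4 fell in resident cells, and 6 rose and 7 fell in elicited cells, or 35% and 65% called. Ppargc1b, a coactivator of mitochondrial genes, rose by 2.50 (SE 0.18, adjusted p = 7.28e-07) in elicited and 3.05 (SE 0.18, adjusted p = 2.21e-07) in resident cells, with no difference called between the effects (-0.54, SE 0.26, adjusted p = 0.129). Pparg, the lipid-sensing nuclear receptor gene, fell most of the regulators in elicited cells (-1.67, SE 0.25, adjusted p = 0.000209). Of 19 genes for fatty acid uptake, storage and lipolysis, 3 rose and 6 fell in resident cells, while in elicited cells none rose by limma (1 at an unadjusted p under 0.05) and 14 fell (47.4% and 73.7% called), with a median of -1.11 in elicited cells. Lipoprotein lipase (Lpl) had the largest fall in resident cells (-6.92, SE 0.23, adjusted p = 3.41e-09), and the fatty acid binding protein gene Fabp4 fell most in elicited cells (-2.36, SE 0.21, adjusted p = 3.37e-06). Of 10 genes of fatty acid synthesis, 3 rose and 1 fell in resident cells, and 3 rose and 4 fell in elicited cells, or 40% and 70% called.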

How the data were processed

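RNA of 14 sorted peritoneal cell samples was measured on one-colour Agilent arrays. The authors deposited a scanner table per array, whose values are Cy3 spot intensities on a linear scale, and a table of processed log2 values. Agilent Feature Extraction, version 11.0.1.1 per the file headers and 11.5 per the submitters' processing notes, which also name limma, gave the intensities. Per the file headers the protocol was for 1 colour, and the processed signal is the intensity after that software's background subtraction. The log2 table the authors deposited has the same median, 9.23, on each array and follows the log2 median signal at r of 0.988 to 0.994. How its background was corrected is not stated in the labels or files.

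Groups came from the treatment label of each sample. Each array held 62976 spots. The 3671 control spots and 113 to 165 outlier spots per array were left out, 0 spots were saturated, and 79.2% to 95.7% of probes were well above background. Probes were named through their RefSeq accession in a gene table of GRCm38.p6: 27235 of 55681 probes had 1 symbol and 28446 stayed unnamed. The 40 genes had 48 probes, 33 of them 1 each and 7 several. From the log2 processed signal of a probe the log2 75th percentile of its array was subtracted. Probes well above background on at least 3 arrays were kept, and the brightest represented its gene, which gave 20347 genes. Differences were tested two-sided with limma 3.58.1 in R 4.3.3, with 1 mean per group over all 14 arrays, and adjusted by the Benjamini-Hochberg method. The script was tested on simulated data. The number of arrays limits the precision.

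Values on every array are given for the 3 largest called rises and falls of the 40 genes in IL-4c vs PBS, Thio vs PBS, Thio+IL-4c vs Thio and the difference of IL-4c effects, and for Cpt1a, Cs, Idh1, Idh2 and Pcx. Of each further pathway list the called genes with the largest rise and fall could be named, and Ppargc1b and Acod1, while 1 further gene of that rule is not reported here. Alternatives covered scaling, background correction, the authors' table, filters, probe rule, slide, replicate number, array weights, the samples fitted and leaving out each array. The genes and lists were chosen with earlier results of these data known.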

Additional observations from a re-analysis of the deposited data

Results flagged for a closer look

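The IL-4c effect differed between elicited and resident cells, by the test of the difference itself, in 27 of the 40 genes. The log2 difference of effects, elicited minus resident, was below 0 for 15 fatty acid oxidation genes, namely Acadl (-2.58), Acaa2 (-1.99), Hadh (-1.83), Acsl1 (-1.67), Hadhb (-1.67), Cpt1a (-1.64), Etfdh (-1.39), Echs1 (-1.22), Hadha (-1.20), Ehhadh (-1.15), Decr1 (-1.05), Etfa (-0.99), Eci1 (-0.84), Etfb (-0.62) and Cpt2 (-0.52). It was below 0 for 10 TCA cycle genes, namely Idh1 (-1.99), Pcx (-1.73), Ogdh (-1.38), Mdh1 (-1.14), Cs (-0.95), Dld (-0.80), Idh2 (-0.75), Dlst (-0.68), Idh3a (-0.66) and Suclg2 (-0.57). It was above 0 for Crat (1.43) and Acsl4 (0.96).

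In groups of 4 arrays, 1 array lay far from the other 3 for 3 of the 80 pairs of gene and group looked at, where chance gives about 1 in 20. Slc25a20 was at -0.34 on Thio+IL-4c 2, against -0.10 to -0.06 on the other Thio+IL-4c arrays. Ehhadh was at -3.15 on Thio+IL-4c 4, against -2.88 to -2.84 on the others. Idh3b was at 3.08 on Thio+IL-4c 1, against 2.88 to 2.91 on the others.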

How the results depend on the processing

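Counts of called genes out of 40 moved by more than 1.5 times in 3 cases, and the cause was not tested. In Thio+IL-4c against IL-4c the slide block gave 21 in place of 36. In Thio against PBS array weights gave 22 and a fit of only the groups compared gave 8, in place of 14. Leaving out 1 array at a time gave 36 to 37 in Thio+IL-4c against IL-4c, 20 to 26 in Thio+IL-4c against Thio, 11 to 16 in Thio against PBS, 32 to 37 in IL-4c against PBS and 25 to 28 for the difference of effects. Of all genes, the slide block called 26.7% in place of 70.0% in Thio+IL-4c against IL-4c. In Thio against PBS 44.5% of all genes were called, and the slide block rests on Thio 1 alone. There array weights called 74.2%, only the groups compared 19.3% and the fit without Thio 1 68.2%. The split of rises and falls moved with the scaling: 6 and 10 under array medians in Thio+IL-4c against Thio and 8 and 13 in the authors' table (14 and 10 reported), and 2 and 9 under array medians in Thio against PBS (5 and 9 reported). In IL-4c against PBS the authors' table gave 35 rises and 0 falls, against 23.2% and 15.9% of all genes. For the difference of effects it gave 37 calls, against 44.5% of all genes. Array medians moved the median of all genes to -0.55 in Thio+IL-4c against IL-4c, -0.23 in Thio against PBS, -0.07 in Thio+IL-4c against Thio and -0.25 for the difference of effects, and normexp moved it to -0.17 in IL-4c against PBS.

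For single genes, 2102 of 2280 values under alternatives other than leaving out an array kept their direction and side of the threshold, 90 passed it newly, 87 no longer did and 1 reversed: Decr1 in Thio against PBS was -0.11 on the mean of its probes. Calls held under every alternative for 28 of 35 genes in IL-4c against PBS, 13 of 24 in Thio+IL-4c against Thio, 6 of 14 in Thio against PBS, 19 of 36 in Thio+IL-4c against IL-4c and 23 of 27 for the difference of effects. No pairing by replicate number was seen. Deviations of same-numbered arrays from their group means correlated at -0.446 to 0.368 over 19 pairs of arrays, and 2 of 14 arrays correlated best with their own number. Deviations within such small groups cannot exclude a pairing. With the replicate block 33, 13, 21, 36 and 26 genes were called in IL-4c against PBS, Thio against PBS, Thio+IL-4c against Thio, Thio+IL-4c against IL-4c and the difference of effects. In the same order, 28.5%, 38.0%, 34.3%, 67.5% and 28.7% of all genes were called. The files hold no mean signal, so normexp was run on the median signal, chosen after seeing the data, and the version on the mean signal was not run. A comparison within a slide could not be made for Thio+IL-4c against IL-4c. For the difference of effects, each IL-4c effect lies within a slide once Thio 1 is left out. That fit called 27 genes, 3 above and 24 below 0, against 40.1% of all genes. The slide block gave the same counts by construction and is no second check. Thio 1 alone separates slide from thioglycollate, so the slide term takes up that array. Signal over background did not limit these genes, which were well above background on all 14 arrays.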
